A study of Mus musculus with 13 samples.

Results

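The genes described here encode the laminin chains, integrin subunits and linker proteins of hemidesmosomes and of related epithelial contacts with the basement membrane: Lama3, Lamb3, Itga6, Itgb4, Itga3, Itgb6, Itga2, Dst and Plec. They were chosen by name, and all 9 are among the 15213 genes of the deposited table. The series compares 10 tumors, taken from 6 females with the transgenes MMTV-tTA and TetO-Tsg101, with the mammary glands of 3 females of the wild-type FVB strain, all by RNA sequencing. In the tumor-bearing animals, the MMTV promoter drives tTA, a transactivator that tetracyclines switch off, and without doxycycline tTA turns on a transgene that encodes TSG101, a subunit of the ESCRT-I endosomal sorting complex, together with a luciferase reporter. The MMTV promoter is active in only part of the mammary epithelial cells. The glands carry neither transgene. A single tumor came from each of 3 females, a pair of tumors from each of 2 and 3 tumors from the last. The ages of the animals and the reproductive stage of the glands are not given in the labels. The question addressed is how the transcripts of these adhesion complexes differ between tumors and glands.

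Hemidesmosomes rivet basal epithelial cells to the basement membrane. Outside the cell, a laminin that contains the chains encoded by Lama3 and Lamb3 is bound by the integrin α6β4, the dimer of the Itga6 and Itgb4 products, and by the transmembrane collagen XVII encoded by Col17a1. Inside the cell, plectin (Plec) and the epithelial form of dystonin (Dst) link the integrin and collagen XVII to keratin filaments. The integrins α3β1 and α2β1 bind laminin and collagen through actin-linked adhesions, and αvβ6, formed by the Itgb6 product, is an epithelial integrin that binds fibronectin and activates latent TGFβ. In the mammary gland, the cells that touch the basement membrane are mostly myoepithelial cells of the basal layer.

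The libraries held between 6176269 and 16835397 reads for the tumors and between 11672487 and 23889042 for the glands. Levels are given in normalized cpm, read counts after the authors' scaling for library size, and a gene was called when its adjusted p was below 0.05 in limma and its change was over 2-fold. Of the 11795 genes tested, 17.2% were called, 10.2% as higher and 6.99% as lower in the tumors. Whole tissue was sequenced, so a lower transcript level from fewer cells of a type cannot be told apart from less RNA per cell. The summed level of 20 epithelial markers ranged over the tumors from 3307 to 5004 normalized cpm, and was 3236, 4636 and 2088 in glands 1, 2 and 3. The summed level of 10 adipocyte markers was 43.5 to 548 in the tumors and 4402 to 12188 in the glands, and that of 7 milk protein genes was 1384 to 76623 and 165034 to 305121. Gland 3 was the lowest in epithelial and the highest in adipocyte and milk genes, and it also had the largest share of the rRNA precursor Rn45s among the glands (4.35%, against 0.296% to 27.4% over all libraries). Endogenous and transgenic Tsg101 reads together did not differ by the test (tumors 66.5 ± 15.5 (SD, n = 10), glands 53.2 ± 7.68 (SD, n = 3), log2 fold change 0.30, adjusted p = 0.296, limma).

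Lama3 and Itgb4 rose in the tumors, Itga6 fell, and the other 6 genes were not called. Thus 2 of 9 genes were called higher, beside 10.2% of all genes, and 1 of 9 was called lower, beside 6.99%. Their median log2 fold change was 0.16, against 0.01 over all genes tested. Lama3 was also the single member of the set with all 10 tumors above all 3 glands, which held for 10.7% of all genes, and none had all tumors below all glands, which held for 8.53%. All 9 genes had their lowest gland value in gland 3 and 8 of them their highest in gland 2, so the spread between glands is shared among the genes. Their values stand in the plot of levels by library.

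**Figure D1:**
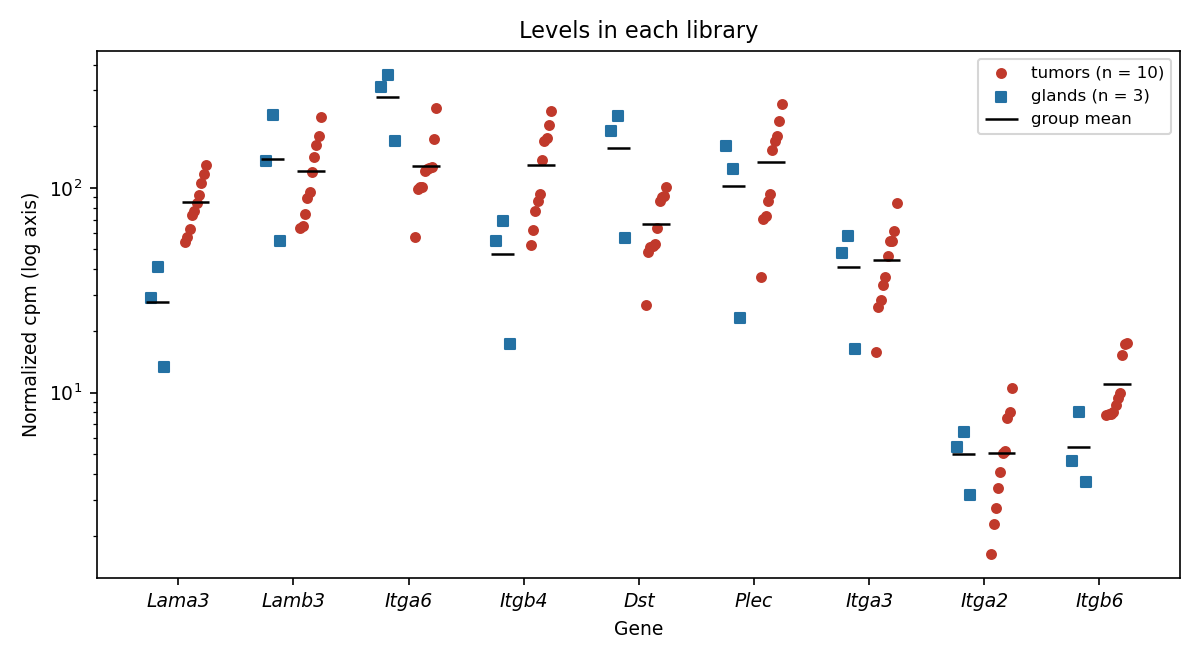
Levels of the 9 genes in each library, in normalized cpm on a log axis. Red circles are the 10 tumors in rising order, blue squares glands 1 to 3 from left to right, and black lines group means. Lama3 has all tumors above all glands, most tumors lie below all glands for Itga6 and above them for Itgb4, and gland 3 is the lowest gland for every gene.

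The laminin chains come first in order of role. Lama3 encodes the α3 chain, which carries the integrin-binding end of the laminin. It was at 29.0, 41.0 and 13.3 normalized cpm in glands 1, 2 and 3, and at 54.4 in the lowest, 80.5 in the median and 129 in the highest tumor. The groups did not overlap, and the lowest tumor exceeded the highest gland. Tumors averaged 85.2 ± 25.3 (SD, n = 10) and glands 27.8 ± 13.9 (SD, n = 3), a log2 fold change of 1.66 (SE 0.31 by limma, adjusted p = 0.0010). Leaving out any library kept Lama3 called, with log2 fold changes between 1.22 and 2.00.

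Lamb3 encodes the β3 chain of the same laminin and lies at chr1:193294353-193343878 (GRCm38.p6, the mm10 build of the files). It was at 135, 226 and 55.0 normalized cpm in the glands, and the tumors ran from 63.5 through a median of 107 to 221. The tumors thus lay within the range of the glands. The log2 fold change was -0.10 (95% interval -1.01 to 0.81, adjusted p = 0.889, limma), and without gland 2 its sign turned, at 0.36.

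The α3 and β3 chains therefore did not shift by the same amount. The ratio of Lamb3 to Lama3 was 3.92 to 5.40 in the glands and 0.890 to 1.93 in the tumors. The ratios given here are of normalized cpm with 1 added to both levels, and are not corrected for gene length. All 10 tumors lay below all glands. The log2 ratio averaged 0.43 ± 0.38 (SD, n = 10) for tumors and 2.19 ± 0.23 (SD, n = 3) for glands, a difference of -1.76 (exact permutation test, two-sided, p = 0.0035, adjusted p = 0.0063 over 9 ratios). With 10 against 3 libraries, 0.0035 is the smallest p possible. A ratio within a library does not depend on how that library is scaled, apart from the pseudocount of 1, so this difference is free of the normalization.

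Itga6 encodes the α6 integrin subunit, which dimerises with β4 in hemidesmosomes and with β1 elsewhere, and lies at chr2:71786886-71858427. Its levels were 311, 357 and 169 normalized cpm in the glands and 57.6, 122 and 244 in the lowest, median and highest tumor. Below all glands lay 8 of 10 tumors, and tumors 4 and 6, at 173 and 244, exceeded gland 3. Itga6 fell by 1.15 on the log2 scale (127 ± 50.4 (SD, n = 10) against 279 ± 97.9 (SD, n = 3), SE 0.33, adjusted p = 0.018, limma). The call was lost without gland 1 (log2 fold change -1.03, adjusted p = 0.096, limma) and without gland 2 (-0.94, adjusted p = 0.115).

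Itgb4 encodes the β4 subunit, whose long cytoplasmic tail binds plectin, and lies at chr11:115974725-116008412. It was at 55.3, 69.1 and 17.3 normalized cpm in the glands, and at 52.8, 115 and 237 in the lowest, median and highest tumor. Above all glands lay 8 of 10 tumors, while tumors 1 and 9, at 62.4 and 52.8, lay between the glands. Itgb4 rose with a log2 fold change of 1.48 (129 ± 64.1 (SD, n = 10) against 47.2 ± 26.8 (SD, n = 3), SE 0.48, adjusted p = 0.032, limma). The call was lost without gland 1 (1.69, adjusted p = 0.056) and without gland 3, where the log2 fold change was 0.88 (adjusted p = 0.170, limma).

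The 2 subunits of one dimer thus went in opposite directions. Itgb4 reached 0.108 to 0.196 of the Itga6 level in the glands and 0.616 to 1.64 in the tumors, again with 1 added to both levels. The groups did not overlap in any library, with the highest gland ratio under the lowest tumor ratio. The log2 ratio averaged -0.05 ± 0.52 (SD, n = 10) for tumors and -2.68 ± 0.47 (SD, n = 3) for glands, a difference of 2.62 or 6.16-fold (exact permutation test, two-sided, p = 0.0035, adjusted p = 0.0063). The ratio of Itga6 to Itgb1, the other partner of α6, was lower in 9 of 10 tumors than in any gland, with a difference of -1.35 (exact permutation test, p = 0.014, adjusted p = 0.021). It did not pass without gland 1 (-1.22) or without gland 2 (-1.25), both at an adjusted p of 0.114 by the exact permutation test. Itgb1 itself, which encodes the β1 subunit shared by many integrins, was at 336, 402 and 299 normalized cpm in the glands and at 309 to 507 in the tumors (log2 fold change 0.20, adjusted p = 0.484, limma).

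**Figure D2:**
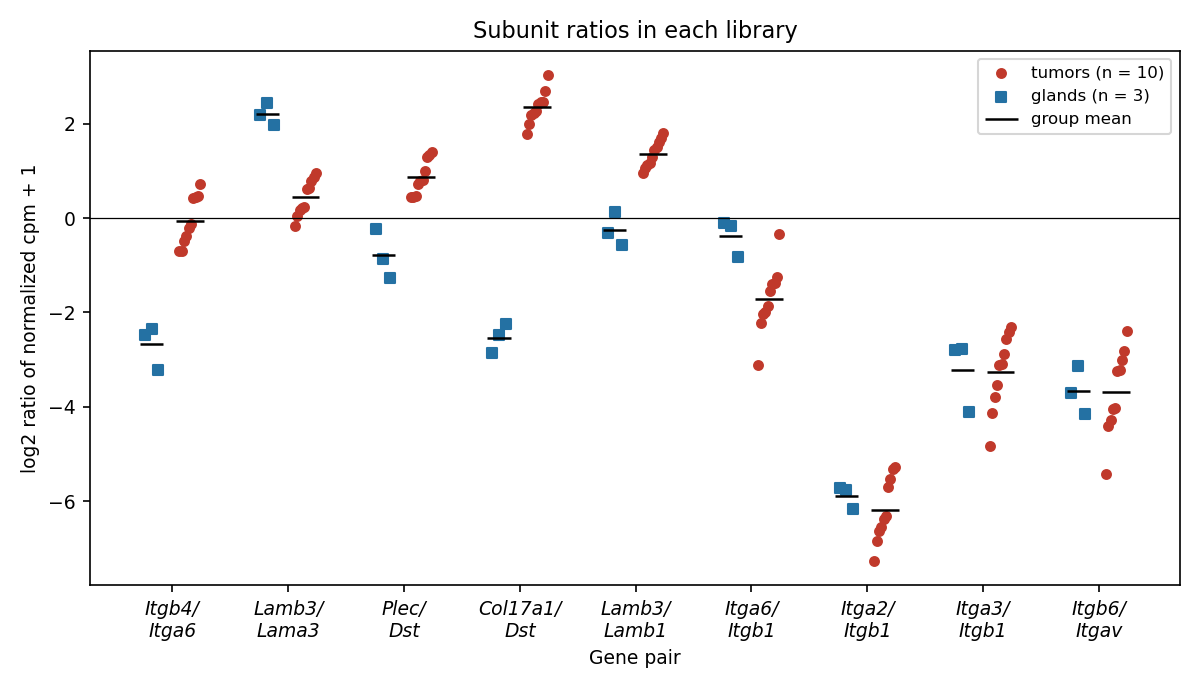
Log2 ratio of 9 gene pairs in each library, on log2(normalized cpm + 1). Red circles are tumors in rising order, blue squares glands 1 to 3 and black lines group means. The first 5 pairs separate the tumors from the glands completely, with Itgb4/Itga6 up by 2.62 and Lamb3/Lama3 down by 1.76 in the means. For Itga6/Itgb1, 9 of 10 tumors lie below all glands, and Itga2/Itgb1, Itga3/Itgb1 and Itgb6/Itgav overlap more widely.

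The linker genes were not called, although their ratio differed. Dst, at chr1:33907888-34308662, encodes dystonin, a large plakin with epithelial, neuronal and muscle forms from different promoters. Its gene count sums the reads of all these forms. It was at 189, 225 and 57.1 normalized cpm in the glands and at 26.8, 58.4 and 101 in the lowest, median and highest tumor. All tumors lay below glands 1 and 2, and 5 of 10 also lay below gland 3. The log2 fold change of -1.10 (SE 0.41) missed the threshold in limma (adjusted p = 0.059), but Dst was called lower by edgeR on the recovered reads (-1.25, adjusted p = 0.019) and by DESeq2 (-1.23, adjusted p = 0.0098). In limma it was at -0.74 (adjusted p = 0.325) without gland 2 and called at -1.71 (adjusted p = 0.0041) without gland 3.

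Plec, at chr15:76170974-76231378, encodes plectin, which ties β4 to keratin filaments and is also made in muscle and other tissues. Its levels were 160, 123 and 23.2 normalized cpm in the glands and 36.8, 122 and 257 in the lowest, median and highest tumor. The groups overlapped over most of this range. The log2 fold change was 0.56 (95% interval -0.70 to 1.82, adjusted p = 0.530, limma), and it was -0.29 without gland 3. In every library, however, the ratio of Plec to Dst placed tumors above glands: 1.36 to 2.64 in the tumors and 0.416 to 0.848 in the glands. The difference in mean log2 ratio was 1.66 (exact permutation test, two-sided, p = 0.0035, adjusted p = 0.0063).

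Skeletal muscle and Schwann cells also express plakins, and their markers were therefore counted. The summed level of the 7 skeletal muscle markers listed was 15.4 to 41.1 normalized cpm in the glands and 11.1 to 26 in 8 tumors, and it was 2177 in tumor 4 and 405 in tumor 10. Plec was 213 in tumor 4 and 72.5 in tumor 10, and tumor 7, the highest for Plec, had a muscle sum of 26. The sum of 10 Schwann cell markers was 280 to 447 in the tumors and 285 to 464 in the glands. Their part in the Dst and Plec levels was not tested.

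The RefSeq promoter table holds 2 windows for Dst, and they are shown because the gene count cannot assign its reads to any one start. The annotated gene begins upstream of both, so these are not all of its starts. Each window holds the 250 bases before a start of GRCm38.p6 on the plus strand, and the third window, of Col17a1 on the minus strand, is shown for the partner gene that rose most. In these windows and in those of 4 other members, the letters TGANTCA, the AP-1 motif, were searched on both strands, where they read alike. Windows of Lama3 are not reported here. None of 9 windows of 5 members and not that of Col17a1 held a match, against 6.75% of 32851 windows over all genes. No base is in capitals, since there was no match to mark.
Dst, first window, chr1:34011345-34011594: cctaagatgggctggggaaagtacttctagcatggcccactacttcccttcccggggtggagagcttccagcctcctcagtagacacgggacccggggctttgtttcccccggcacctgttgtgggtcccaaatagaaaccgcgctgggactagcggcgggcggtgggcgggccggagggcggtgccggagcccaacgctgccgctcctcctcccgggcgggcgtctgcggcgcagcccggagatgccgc
Dst, second window, chr1:34160010-34160259: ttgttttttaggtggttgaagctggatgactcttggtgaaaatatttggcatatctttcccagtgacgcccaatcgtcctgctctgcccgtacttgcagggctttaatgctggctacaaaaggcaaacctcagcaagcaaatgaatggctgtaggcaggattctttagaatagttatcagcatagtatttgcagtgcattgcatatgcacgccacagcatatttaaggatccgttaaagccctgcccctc
Col17a1, chr19:47692043-47692292: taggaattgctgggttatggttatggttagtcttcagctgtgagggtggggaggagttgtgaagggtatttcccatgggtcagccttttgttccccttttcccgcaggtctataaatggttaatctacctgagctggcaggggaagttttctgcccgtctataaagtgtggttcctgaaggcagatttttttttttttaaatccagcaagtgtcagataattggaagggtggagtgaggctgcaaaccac

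Col17a1, which encodes the collagen XVII that both Dst and Plec products bind, showed the largest difference among the partners. It was at 25.0, 39.3 and 11.2 normalized cpm in the glands and at 184, 322 and 558 in the lowest, median and highest tumor. Every tumor exceeded the highest gland. The log2 fold change was 3.78 (SE 0.36, adjusted p = 3.3e-06, limma). Set against Dst, the transcript of its intracellular partner, Col17a1 was 0.137 to 0.210 of the Dst level in the glands and 3.42 to 8.15 times that level in the tumors, a difference in mean log2 ratio of 4.88 (exact permutation test, p = 0.0035, adjusted p = 0.0063). Cd151, a tetraspanin that associates with laminin-binding integrins, was not called either, at a log2 fold change of -0.19 (limma, adjusted p = 0.384).

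**Figure D3:**
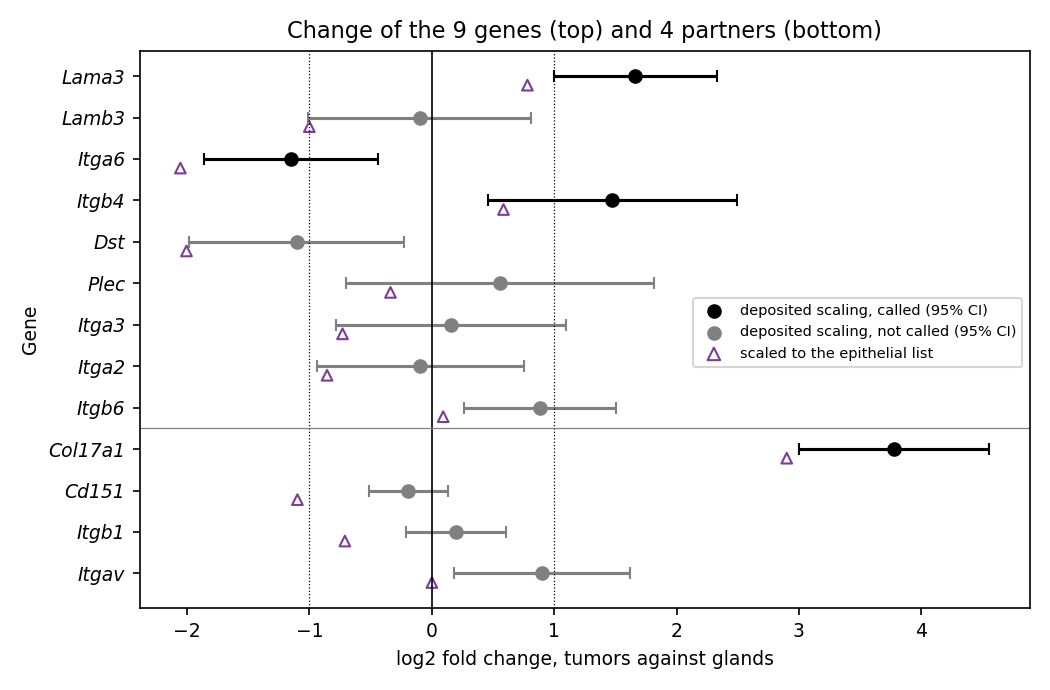
Log2 fold change of tumors against glands for the 9 genes (above the grey line) and 4 partner genes (below it). Circles with bars are limma estimates with 95% intervals, black where called and grey where not, open purple triangles the estimates after scaling to the epithelial markers, and dotted lines a 2-fold change. Lama3 at 1.66, Itgb4 at 1.48, Itga6 at -1.15 and Col17a1 at 3.78 are called, and every triangle lies below its circle.

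The remaining integrin subunits showed smaller differences. Itga3 encodes the α3 subunit of the laminin receptor α3β1 and lies at chr11:95044475-95076844. It was at 48.0, 58.2 and 16.3 normalized cpm in the glands and at 15.8, 41.6 and 83.9 in the lowest, median and highest tumor. The tumors spanned the whole range of the glands, and the log2 fold change was 0.16 (95% interval -0.78 to 1.09, adjusted p = 0.827, limma). Without gland 3 it was -0.39 (adjusted p = 0.515).

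Itga2 encodes the α2 subunit of the collagen receptor α2β1 and lies at chr13:114833081-114932100. It had the lowest mean of the 9 genes in both groups, with 11 to 172 reads per library. It was at 5.39, 6.45 and 3.17 normalized cpm in the glands and at 1.63, 4.57 and 10.5 in the lowest, median and highest tumor. Both groups had means near 5, and the log2 fold change was -0.09 (95% interval -0.94 to 0.76, adjusted p = 0.888, limma). The ratios of Itga3 and Itga2 to Itgb1 did not differ by the test either, at -0.04 (adjusted p = 0.972) and -0.29 (adjusted p = 0.652, exact permutation tests).

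Itgb6 encodes the β6 subunit, which pairs only with αv, and lies at chr2:60598292-60722603. It was at 4.62, 8.05 and 3.66 normalized cpm in the glands and at 7.74, 9.07 and 17.5 in the lowest, median and highest tumor. All tumors lay above glands 1 and 3 and 6 of 10 also above gland 2, with tumors 3, 4 and 7 between 15.3 and 17.5 and the others at 9.96 or less. The log2 fold change of 0.88 (SE 0.29, adjusted p = 0.034, limma) passed the adjusted p but was under 2-fold, so that Itgb6 was not called. It was called by DESeq2, at 1.01 (adjusted p = 0.013), and with means per mouse, at 1.01 (adjusted p = 0.033, limma). Its partner Itgav was at 72.5, 78.9 and 81.3 normalized cpm in the glands and at 89.1 to 374 in the tumors, with all 10 tumors above all glands (log2 fold change 0.90, adjusted p = 0.059, limma). Itgav was called by DESeq2, at 1.05 (adjusted p = 0.025). With scaling to the epithelial markers, Itgb6 was at 0.09 and Itgav at 0.00092. Their ratio differed by -0.02 between the groups (exact permutation test, p = 0.972).

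Compared per kilobase of exons, the order of the levels differed between the groups. In the glands, Itga6 led with 30.9 ± 10.9 normalized cpm per kilobase, followed by Lamb3 at 21.0 ± 12.9, and these neighbours did not differ beyond their SD (n = 3). In the tumors, Itgb4 at 18.4 ± 9.13, Lamb3 at 18.3 ± 8.09 and Itga6 at 14.1 ± 5.59 led, and they too did not differ beyond their SD (n = 10). Lama3, Itga3 and Plec formed the next step in the tumors, at 7.93, 7.75 and 7.34, and lay within each other's SD. In the glands, the corresponding step held Itga3 at 7.15, Itgb4 at 6.73 and Plec at 5.63, with Dst at 3.81 and Lama3 at 2.59 after them, each within the larger SD of its neighbour. Dst, at 1.61 in the tumors, stood beside Itgb6 at 1.54. Itga2 had the lowest mean in both groups, at 0.71 in the tumors and 0.70 in the glands. In the glands Itgb6, at 0.77, did not differ from Itga2 beyond the SD. The length used was the union of all annotated exons, which understates a gene such as Dst when short forms are made.

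The 9 genes also varied among the tumors. The highest tumor exceeded the lowest 2.27-fold for Itgb6, 2.37-fold for Lama3, 4.49-fold for Itgb4 and 6.97-fold for Plec. Tumors 4 and 7 were among the highest 3 for 8 of the 9 genes each, and tumors 1, 5 and 9 had the lowest levels by mean rank. Tumors of the same mouse also differed: tumors 5 and 6, from 1 female, differed 2.82-fold for Lamb3, 2.35-fold for Itga3 and 2.26-fold for Itgb4, and the 3 tumors of another female differed 2.57-fold for Itgb4 and 1.03-fold for Itgb6. Over the 36 pairs of genes, Pearson r across the 10 tumors was between 0.09 and 0.97 with a median of 0.69, and 25 pairs, or 69.4%, were above 0.5. Over all pairs of the genes tested, the median r was 0.007 and 22.7% were above 0.5. The points of these correlations share libraries and, in part, mice, so they are descriptions.

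Over the means of the 6 mice, 5 pairs of partner genes were compared. Itgb4 and Plec, whose products bind each other, had a Pearson r of 0.95 (exact permutation p = 0.0042, adjusted p = 0.021) and a Spearman rho of 0.94 (exact permutation p = 0.017, adjusted p = 0.083). Without the 2 mice farthest from the median of Itgb4, r was 0.99. Lama3 and Lamb3 had an r of 0.86 and a rho of 0.77 (exact permutation p = 0.028 and 0.103, adjusted p = 0.069 and 0.171), but r was 0.06 without the 2 farthest mice, so that the relation rests on those mice. Itga6 and Itgb4 had an r of 0.65 and a rho of 0.60 (exact permutation p = 0.165 and 0.242, adjusted p = 0.275 and 0.302). For Itga3 with Itgb1, r was -0.21 and rho -0.26, and for Itgav with Itgb6, r was -0.59 and rho -0.77, neither passing (exact permutation, adjusted p between 0.171 and 0.690). In the plot of Itgb4 against Plec, glands 1 and 2 stood apart, with more Plec for their Itgb4 than the tumors. Gland 3 was below all tumors for both genes, at 17.3 for Itgb4 and 23.2 for Plec.

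**Figure D4:**
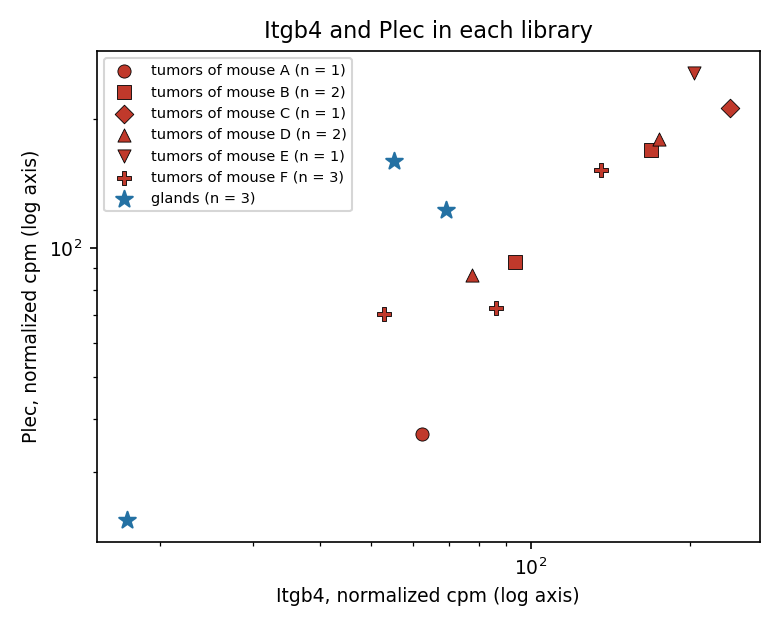
Itgb4 against Plec in each library, both in normalized cpm on log axes. Red symbols are tumors, with 1 symbol for each of the 6 mice (A to F), and blue stars the 3 glands. Tumors run along 1 line from 52.8 to 237 for Itgb4, with tumors of the same mouse at different heights, and glands 1 and 2 lie above that line.

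The mean log2 level of Lama3, Lamb3, Itga6 and Itgb4 was compared with all other tested genes over the 10 tumors. Alpl, which encodes tissue-nonspecific alkaline phosphatase, was the most alike with a Pearson r of 0.98, and Disp1, Arhgef12, Sptbn1 and Slc6a2 followed with r of 0.98. These are the highest of many correlations over 10 points, of which several come from the same mouse, and they are given as a description.

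The gene families around the 9 genes moved in both directions. Of 8 other laminin chains, 6 were tested, none was called higher and 4 were called lower by limma and by edgeR with the filter on low values, with a limma median log2 fold change of -1.49 against 0.01 over all genes. Of all genes, limma called 10.2% higher and 6.99% lower, and edgeR 9.51% and 8.07%. Without the filter, limma called 1 of the 8 higher and 6 lower, beside 10.5% and 10.1% of all genes. Lama5, named after its values were seen, was at 1.13 (adjusted p = 0.0501, limma with the filter), the only chain higher at an unadjusted p below 0.05, and DESeq2 called it higher at 1.12 (adjusted p = 0.021). These 4 were Lama1 at -2.48 (SE 0.54), Lamb1 at -1.71 (SE 0.39), Lamc1 at -1.68 (SE 0.45) and Lama4 at -1.30 (SE 0.19), of which the last 2 were chosen after their values were seen. Lamc1 was not called without gland 1 (-1.44, adjusted p = 0.084) or gland 2 (-1.30, adjusted p = 0.096, limma). Lamb1 and Lamc1 encode the β1 and γ1 chains of most other laminins, including those of blood vessels and of adipose and muscle tissue. Lamb3 was 0.675 to 1.09 times the level of Lamb1 in the glands and 1.94 to 3.48 times in the tumors, a difference in mean log2 ratio of 1.61 (exact permutation test, p = 0.0035, adjusted p = 0.0063). The summed level of 10 endothelial markers was 95.3 to 177 normalized cpm in the tumors and 408 to 783 in the glands, and the adipocyte sums given above were also lower. Their part in the laminin result was not tested.

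Of the 7 other genes of hemidesmosomes and anchoring fibrils, 5 were called higher and none lower by limma and edgeR. Of all genes, limma called 10.2% higher and 6.99% lower, and edgeR 9.51% and 8.07%. The median of the 7 was 1.73 in limma, and none was lower at an unadjusted p below 0.05. Beside Col17a1, the 5 were Krt5 at 2.82 (SE 0.47), which encodes a basal keratin that attaches to hemidesmosomes, and, named after their values were seen, Col7a1 at 1.87 (SE 0.53), Krt14 at 1.73 (SE 0.46) and Bmp1 at 1.07 (SE 0.18). Col7a1 encodes the collagen of anchoring fibrils, and Bmp1 a protease that processes laminin and collagen chains. Without gland 3, Col7a1 was at 0.99 (adjusted p = 0.105) and Bmp1 at 0.99, and without gland 1 Krt14 was at 1.63 (adjusted p = 0.062, limma), so that these were no longer called. With scaling to the epithelial markers, which called 4.38% of all genes higher and 39.3% lower, 2 of the 7 were higher and 1, Cd151, was lower, with a median of 0.83. Without the filter on low values, 5 of 12 basal and myoepithelial markers were called higher, Krt5, Krt14, Krt17, Trp63 and Cdh3, and 7 lower. In that fit, 10.5% of all genes were called higher and 10.1% lower. Among the 7 was the contractile gene Acta2, with log2 fold changes of -4.32 for Acta2 and 2.68 for Trp63. Krt17, Trp63, Cdh3 and Acta2 are named after their values were seen. The 12 markers summed to 1080 to 4645 normalized cpm in the tumors and 1380 to 2873 in the glands. The summed level of 15 squamous markers was 732 to 4766 in the tumors and 54.5 to 65.8 in the glands, where 8 of the 15 were at or under 3 reads in every gland. Lama3, Itgb4 and Col17a1 are expressed in basal cells of squamous epithelia as well as in myoepithelial cells, and the part of these cells in their levels was not tested.

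**Figure D5:**
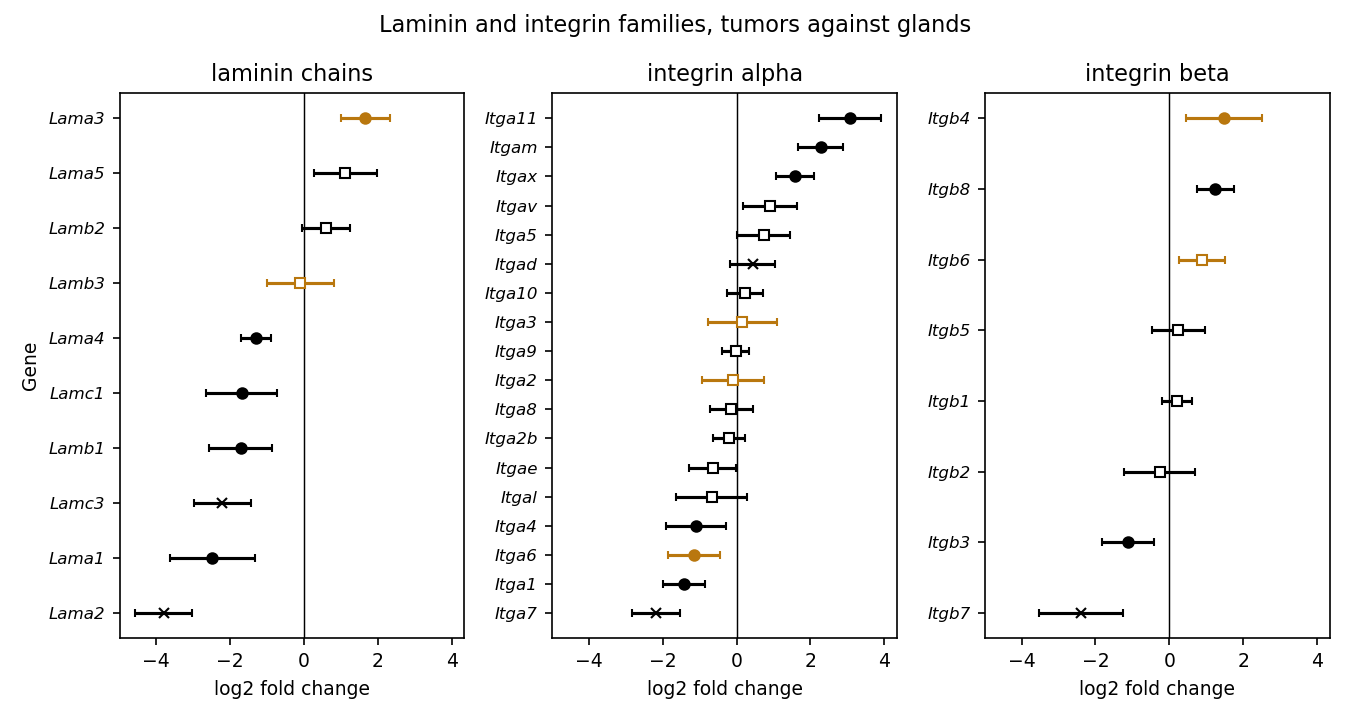
Log2 fold change of tumors against glands with 95% intervals for laminin chains (left), integrin α (middle) and integrin β subunits (right). Filled circles were called, open squares were tested and not called, and crosses, left out by the filter on low values, come from the fit without it. The members are orange: Lama3 is the highest of the laminin chains shown and Itgb4 the highest β subunit, and Itga6 is among the lowest α subunits.

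Of the 15 other integrin α subunits, 13 were tested, with 3 called higher, 2 called lower and a median of -0.03, beside 10.2% and 6.99% of all genes. With epithelial scaling, 2 were higher and 6 lower, beside 4.38% and 39.3% of all genes. The 3 were Itga11 at 3.07 (SE 0.40), a collagen receptor subunit of fibroblasts, Itgam at 2.28 (SE 0.28), a subunit of myeloid cells, and Itgax at 1.58 (SE 0.24), also of myeloid cells and named after its value was seen. The 2 lower were Itga1 at -1.42 (SE 0.26) and Itga4 at -1.09 (SE 0.38, adjusted p = 0.046, limma). Itga4 was at 25.1 and 26.1 normalized cpm in glands 1 and 3 and at 4.44 in gland 2, below the lowest tumor at 4.63. Its log2 fold change was -1.85 without gland 2, -0.72 without gland 1 (adjusted p = 0.299) and -0.69 without gland 3 (adjusted p = 0.204), and 7 of the 10 fits without a single tumor also lost the call (limma). The summed level of 10 macrophage markers was 941 to 4569 normalized cpm in the tumors and 519 to 1856 in the glands, and the sum of 10 lymphocyte markers was 48.0 to 258 and 46.4 to 880, with gland 2 the lowest. Of the 6 other β subunits, 5 were tested: Itgb8, another partner of αv, rose at 1.24 (SE 0.24), Itgb3 fell at -1.12 (SE 0.33), and the other 3 were not called. Itgb3 was not called without gland 1 (-0.90, adjusted p = 0.132) or gland 2 (-1.16, adjusted p = 0.054, limma). With epithelial scaling, 0 of these β subunits were called higher and 2 lower, beside 4.38% and 39.3% of all genes. Itgb8 was then at 0.46 (adjusted p = 0.152, limma).

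Among 22 basement membrane genes and integrin ligands, 20 were listed and 17 tested, of which 2 were called higher and 7 lower (median -0.83), beside 10.2% and 6.99% of all genes. With epithelial scaling, 2 were higher and 12 lower, beside 4.38% and 39.3% of all genes. Col4a6 at 3.11 (SE 0.39) and Col4a5 at 2.58 (SE 0.48) rose, 2 collagen IV chains that form a network beneath some epithelia, while Col15a1 at -3.01 (SE 0.45) and Nid1 at -2.65 (SE 0.31), a linker of laminin and collagen IV networks, fell. Of 20 adaptors of integrins and focal adhesions, 19 were tested, with 1 called higher and 1 lower, beside 10.2% and 6.99% of all genes. The higher was Tns4 at 2.41 (SE 0.38) and the lower Tns1 at -1.89 (SE 0.45), both tensins that bind integrin β tails. Tns1 was not called without gland 1 (-1.58, adjusted p = 0.052, limma). The median of these adaptors was -0.28. With scaling to the epithelial markers, 1 adaptor was called higher and 13 lower, beside 4.38% and 39.3% of all genes. In edgeR, 1 adaptor was called higher and 3 lower, beside 9.51% and 8.07% of all genes. Fibroblast markers summed to 465 to 1247 normalized cpm in the tumors and 4015 to 4559 in the glands.

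The calls of single genes depended on how the libraries were scaled. When each library was scaled to an equal mean log2 level of the 20 epithelial markers, the median of all genes moved to -0.86, and with the median of these markers to -0.43. Of the markers, 5 were themselves called higher in the tumors. Under the first, Lama3 was at 0.78 (adjusted p = 0.013) and Itgb4 at 0.59 (adjusted p = 0.146), so neither was called higher, while Itga6 at -2.05, Dst at -2.0 and Lamb3 at -1.0 were called lower (limma), beside 4.38% of all genes called higher and 39.3% lower. Relative to the shift of all genes these are 1.65 for Lama3, 1.45 for Itgb4 and -1.19 for Itga6. Under the second, Lama3 at 1.22 and Itgb4 at 1.03 were called higher, and Itga6 at -1.61 and Dst at -1.56 lower, beside 6.07% and 16.4% of all genes. Plain cpm without Rn45s moved the median of all genes up to 0.38, and with them Lama3 at 2.04, Itgb4 at 1.85 and Itgb6 at 1.22 were called higher and Itga6 at -0.76 was not called (adjusted p = 0.123, limma), beside 17.4% of all genes called higher and 4.03% lower. The share of calls that were higher was 59.3% with the deposited scaling, 10.03% and 27.02% with the epithelial scalings and 81.2% with plain cpm.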

How the data were processed

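Total RNA of flash-frozen tissue was sequenced by the authors as paired-end reads, mapped to mm10 and counted per gene with featureCounts. The strand setting is not given in the sources used here. The signal values that the authors deposited are these read counts divided by a normalized library size. Dividing by the smallest value of a library gave whole numbers for 100% of its genes (tolerance 0.05 reads), so that reads could be recovered. The labels name a core facility and a company as sites of sequencing without saying which for which library, and no batch could be assigned.

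The 9 genes and all gene lists were chosen with earlier results of these data known. A gene was dropped when most of the 13 libraries had it at 5 normalized cpm or below (3418 of 15213 genes), and limma 3.58.1 with a trend was fitted to log2(normalized cpm + 1) of 10 tumors and 3 glands, with condition as the only term, in R 4.3.3. Fold changes are on that scale, which understates changes of low genes. Adjusted p is Benjamini-Hochberg over all 11795 genes tested, and genes were called at an adjusted p below 0.05 and over 2-fold. Ratios were compared by exact two-sided permutation of the group labels over the libraries (286 arrangements). These tests take tumors of one mouse as separate samples. The labels do not say that the glands are of separate litters, and p-values measure the spread between these samples. Named genes are the 9 members, 4 partners (Col17a1, Cd151, Itgb1, Itgav), in each list the 2 largest rises and falls among called genes, and Tsg101. The 5 genes outside all lists that were most alike over the tumors are also named. Other genes are marked in the text as named after their values were seen. A further partner is not reported here.

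Since the values are normalized and not counts, limma was the main test, with edgeR 4.0.16 and DESeq2 1.42.0 on recovered reads as alternatives. Scripts were tested on simulated data. Other alternatives were the scaling, pseudocounts of 0.25 and 5, no filter, means or a random block per mouse, the replicate number as a block and leaving out each library. Added after seeing the data were leaving out the libraries highest in Rn45s, edgeR without the filter for lists, and scaling to the median of the epithelial markers. Coordinates and promoter windows are from RefSeq on GRCm38.p6, joined by Entrez ID, and exon lengths from GENCODE. Reads of overlapping genes could not be reassigned. The number of reads per library limits the precision of low genes such as Itga2, and a count of 3 reads, the limit that a count of 0 allows at 95% confidence, served as floor for the markers. It covers counting error only.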

Additional observations from a re-analysis of the deposited data

Results flagged for a closer look

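Of 43 sets of values (genes in the 10 tumors) examined for a single library far from the others, 1 stood out. Itgav, the αv partner of Itgb6, was at 374 normalized cpm in tumor 9 and at 187 in the next highest tumor, a gap of 0.483 of the whole range on the log2 scale, beyond the 95% critical value of Dixon's test for 10 samples. By chance about 1 in 20 such sets would stand out. Tumor 9 was also the lowest tumor for Itgb6 (7.74), Itgb4 (52.8) and Itga6 (57.6), and it had the largest share of Rn45s reads (27.4%). Without tumor 9, the log2 fold change of Itgav was 0.75. The groups of 3 glands were too small for this check.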

How the results depend on the processing

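The counts of the 9 genes called, 2 higher and 1 lower, depended on the glands and on the scaling. The higher count was 0 with scaling to epithelial markers and with the replicate block, 1 without the 3 libraries highest in Rn45s (tumors 6 and 9, gland 3), and 3, with Itgb6 added, with DESeq2, plain cpm, means per mouse and edgeR without the filter. The lower count was 2 with edgeR, with DESeq2, with the median epithelial scaling and without those 3 libraries, 3 with the mean epithelial scaling, and 0 with plain cpm and with the replicate block. Of all genes, 10.2% were higher and 6.99% lower with the deposited scaling, 4.38% and 39.3% with the mean and 6.07% and 16.4% with the median epithelial scaling, 17.4% and 4.03% with plain cpm, 3.07% and 1.54% with the block, 9.51% and 8.07% with edgeR, 12% and 11.3% with edgeR without the filter, 10.4% and 7.97% with DESeq2, 9.47% and 6.78% with means per mouse, and 13.8% and 9.73% without the 3 libraries. At an unadjusted p below 0.05, limma had 1 higher with epithelial scaling, 1 higher and 1 lower with the block, and 0 lower with plain cpm. Leaving out single libraries gave 1 to 2 higher (1 without gland 1 or gland 3) and 0 to 2 lower (0 without gland 1 or gland 2, 2 without gland 3 or tumor 7). Without the 3 libraries, Itgb4 was at 0.95 (adjusted p = 0.110, limma). Over the 6 lists, 12 genes were higher and 15 lower, against 7 and 38 with the mean epithelial scaling, with its 39.3% of all genes lower, and 24 lower with edgeR without the filter.

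The replicate numbers did not pair the samples: deviations of a tumor and a gland with the same number correlated at -0.58, 0.04 and -0.66. With the replicate block, Lama3 was at 1.34 and Itga6 at -1.19. The ratio differences with the replicate block, in 3 pairs whose smallest p is 0.25, were 4.96 for Col17a1/Dst, 2.47 for Itgb4/Itga6, -1.61 for Lamb3/Lama3, 1.79 for Lamb3/Lamb1, 1.67 for Plec/Dst and -1.30 for Itga6/Itgb1, with the sign kept, and Itga2/Itgb1 at 0.13 and Itgb6/Itgav at 0.44 turned sign. Itgb6/Itgav also turned with means per mouse (0.15) and with a pseudocount of 0.25 (0.067). Over single libraries left out, it ran from -0.26 to 0.24, Itga3/Itgb1 from -0.49 to 0.18 and Itga6/Itgb1 from -1.57 to -1.19. The 5 ratios that separate the groups passed in every setting but the block.

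Among the 9 genes, the partners and Tsg101, those that turned sign were not called with the deposited scaling, and their log2 fold changes were as follows. With plain cpm, Cd151 was at 0.19, Itga2 at 0.22 and Lamb3 at 0.29. With epithelial scaling, Itga3 was at -0.73, Itgb1 at -0.71, Plec at -0.34 and Tsg101 at -0.60, and with the median of the markers Itga3 was at -0.29 and Itgb1 at -0.26. Itga2 was at 0.0024 with edgeR, 0.023 with DESeq2, 0.11 with means per mouse and 0.23 with the block. Lamb3 was at 0.0064 with means per mouse and Itga3 at -0.17 with the block. Without the 3 libraries, Itga3 was at -0.40 and Plec at -0.28. Leaving out single libraries gave -0.33 to 0.084 for Itga2, -0.39 to 0.50 for Itga3, -0.65 to 0.36 for Lamb3 and -0.29 to 1.08 for Plec.

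Of the correlations, Itgb4 with Plec had an r of 0.99 without 2 mice, where the adjusted p of 0.208 is the smallest that exact permutation of 4 mice over 5 pairs allows, so that it could not pass. With 10 tumors as samples Lama3 with Lamb3 (0.80, adjusted p = 0.018) and Itga6 with Itgb4 (0.71, adjusted p = 0.022) passed by permutation. That test takes tumors of one mouse as independent, which they are not. Over the 6 mice neither pair passed (adjusted p = 0.069 and 0.275 for Pearson r, exact permutation). The cause of the changes with scaling and tool was not tested. There were 3 glands, and gland 3 was the lowest of them for all 9 genes. Taking the mouse as a random block (correlation 0.05 within a mouse) changed no count of members.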
